A study of Homo sapiens with 4 samples.

Results

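Imprinted genes are expressed from only the maternal or only the paternal chromosome. The choice is set by DNA methylation laid down in egg or sperm at imprinting control regions and kept in the cells of the embryo. LSD2, encoded by KDM1B, removes methyl groups from lysine 4 of histone H3, and in mouse oocytes it is required before maternal DNA methylation can be set at some of these regions. H3K4me1, the monomethylated form of that lysine, marks enhancers and the surroundings of promoters.

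The domains studied are 6 stretches of the human genome (build hg19) that hold 10 imprinted genes, namely H19, IGF2, KCNQ1, CDKN1C, SNRPN, GNAS, DLK1, MEG3, PLAGL1 and IGF2R. They were chosen as fixed spans on the chromosomes, and every distinct peak of the list that overlapped a span was taken. That gave 150 peaks, 0.0934% of the 160601 distinct peaks in the list, over 3490 kb. Each span was compared with the 1 Mb on either side of it, which held 703 peaks in all over 12000 kb.

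The list gives regions with more H3K4me1 reads in HepG2 cells that received an siRNA against LSD2 than in HepG2 cells that received a control siRNA. HepG2 is a human liver tumour line, grown here in high glucose medium with serum. The 4 libraries, 1 in each group, were H3K4me1 and input (chromatin with no antibody) from LSD2 siRNA cells, and H3K4me1 and input from control siRNA cells (siGL3). Neither input is named in the peak call. With 1 library behind each condition, no p-value can be given for LSD2 knockdown against control. The names of both H3K4me1 libraries in the file header carry different dates, so date and condition cannot be told apart. The opposite list, with regions higher in control cells, was not analysed here. A stretch without a peak may therefore have kept its H3K4me1, lost it, or been too thinly covered, since the depth of the libraries is unknown. Whether the expression of the genes changed is likewise not analysed here.

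The span on chromosome 11 runs from 2000001 to 2950000 and carries the H19, IGF2, KCNQ1 and CDKN1C genes in that order. H19 is a noncoding RNA made from the maternal copy, IGF2 a fetal growth factor made from the paternal copy, KCNQ1 a potassium channel subunit, and CDKN1C an inhibitor of cyclin-dependent kinases. The SNRPN span on chromosome 15 runs from 23800001 to 25700000. SNRPN encodes a protein of the splicing machinery and lies in the region lost in Prader-Willi syndrome. The GNAS span lies on chromosome 20 from 57390001 to 57500000, and GNAS encodes the stimulatory G protein alpha subunit along with imprinted alternative transcripts. The DLK1-MEG3 span lies on chromosome 14 from 101170001 to 101350000. DLK1 is a membrane protein related to Notch ligands, made from the paternal copy, and MEG3 is a noncoding RNA made from the maternal copy. On chromosome 6, the PLAGL1 span runs from 144240001 to 144410000 and the IGF2R span from 160370001 to 160550000. PLAGL1 is a zinc finger transcription factor, and IGF2R is the receptor that clears IGF2. IGF2R is imprinted in mouse, while in human tissues both copies are mostly expressed.

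An hg19 gene annotation was not used here, so peaks are given by their place in a span and not by exon, intron or promoter. Only the order of neighbouring genes was taken from a RefSeq gene table, which is on GRCh38.p14. In it, IGF2, INS (insulin), TH (tyrosine hydroxylase), ASCL2, CD81 and TRPM5 lie between H19 and KCNQ1, and KCNQ1OT1, the antisense RNA of the KCNQ1 domain, lies between the starts of KCNQ1 and CDKN1C. On chromosome 15 its order is MKRN3, MAGEL2, NDN, NPAP1, SNRPN and UBE3A, the ubiquitin ligase gene of Angelman syndrome.

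The sequence at the start sites of some of these genes was also searched for a motif, which the choice of spans did not use. ZFP57, a zinc finger protein that protects imprints in the embryo, binds the methylated hexamer TGCCGC. RefSeq promoter windows on GRCh38.p14, each 300 bases from 250 before to 50 after a transcript start, were at hand for 6 of the 10 genes. IGF2, KCNQ1, CDKN1C and DLK1 were not matched. The hexamer, read on both strands (TGCCGC or GCGGCA), was present in 8 of the 20 windows of these 6 genes, a share of 40.0%, against 16.7% of all 35116 promoter windows. The 8 were 3 of 3 MEG3 windows, which overlap each other, 2 of 4 SNRPN windows, 1 of 6 GNAS windows, 1 of 5 PLAGL1 windows and the IGF2R window, while the H19 window had none. The 3 MEG3 windows share sequence, windows of 1 gene were not taken as independent, and the share was not tested. CpG dinucleotides, the sites of DNA methylation, numbered 17.5 in the median member window and 14 in the median of all windows. The hexamer itself holds a CpG, and its share was not set against windows of like CpG count. The 250 bases before the start are shown for a window of SNRPN and of PLAGL1 with 2 matches each, and for a window of MEG3 with 1, with the matches in capitals. All run 5′ to 3′ on the strand of the gene, which is plus on chromosome 15 for SNRPN, minus on chromosome 6 for PLAGL1 and plus on chromosome 14 for MEG3.
SNRPN: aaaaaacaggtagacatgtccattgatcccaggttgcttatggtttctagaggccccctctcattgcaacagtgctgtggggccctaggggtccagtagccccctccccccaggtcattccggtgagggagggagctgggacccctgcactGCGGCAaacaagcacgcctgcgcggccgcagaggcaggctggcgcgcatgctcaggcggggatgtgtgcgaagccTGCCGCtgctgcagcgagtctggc
PLAGL1: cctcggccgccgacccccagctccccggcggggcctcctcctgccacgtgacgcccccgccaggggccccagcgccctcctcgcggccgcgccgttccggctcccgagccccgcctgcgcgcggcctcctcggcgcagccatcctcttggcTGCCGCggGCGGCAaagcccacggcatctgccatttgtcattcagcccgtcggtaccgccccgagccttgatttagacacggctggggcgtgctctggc
MEG3: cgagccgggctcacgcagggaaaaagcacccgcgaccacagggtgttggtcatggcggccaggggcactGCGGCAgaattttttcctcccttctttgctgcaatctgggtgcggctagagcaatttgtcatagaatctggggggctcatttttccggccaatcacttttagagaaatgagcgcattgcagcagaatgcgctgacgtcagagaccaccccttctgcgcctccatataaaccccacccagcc
In PLAGL1 the matches face each other with 2 bases between them, and in SNRPN they lie farther apart on opposite strands. A match is a run of letters and not a bound site, and these windows were not set against the peaks, which are on another build.

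The domains differed widely in how many peaks they held. PLAGL1 was the densest, with 19 peaks in 170 kb, or 112 peaks per Mb (95% Poisson interval 67.3 to 175). IGF2R followed with 19 peaks in 180 kb (106 per Mb, 63.6 to 165) and GNAS with 10 peaks in 110 kb (90.9 per Mb, 43.6 to 167). The other 3 were sparse. The SNRPN domain held 70 peaks in 1900 kb (36.8 per Mb, 28.7 to 46.5), the chromosome 11 span 27 peaks in 950 kb (28.4 per Mb, 18.7 to 41.4), and DLK1-MEG3 5 peaks in 180 kb (27.8 per Mb, 9.02 to 64.8). All intervals given for these domains reflect counting error alone, as if each peak arose independently of its neighbours.

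Neighbours in this order could not be separated, except at the step between GNAS and the SNRPN domain. GNAS was 2.47-fold denser than the SNRPN domain, with an interval of 1.13 to 4.81 (exact conditional binomial, 95%). PLAGL1 over IGF2R gave 1.06 (0.530 to 2.11), IGF2R over GNAS 1.16 (0.514 to 2.80), SNRPN over chromosome 11 1.30 (0.821 to 2.10), and chromosome 11 over DLK1-MEG3 1.02 (0.388 to 3.40). Of all 15 pairs, 9 had an interval wholly above 1, and these were the pairs of PLAGL1, IGF2R or GNAS with 1 of the other 3 domains. The intervals were not adjusted for the 15 comparisons, and that of GNAS over DLK1-MEG3 began at 1.02.

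**Figure D1:**
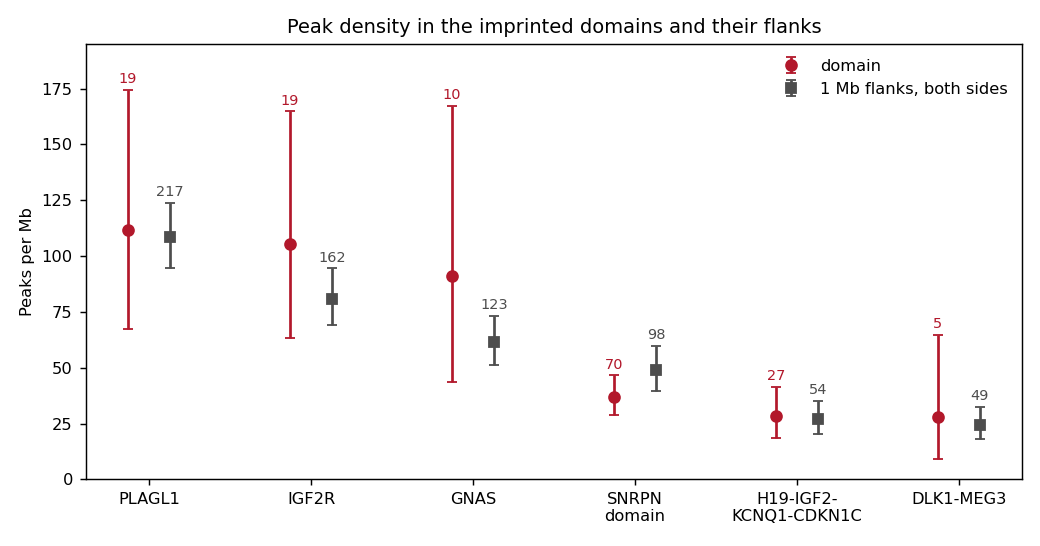
Peaks per Mb in each imprinted domain (circles) and in the 1 Mb flanks on both sides of it (squares), ordered by the density of the domain, with the number of peaks above each and bars for the 95% Poisson interval. The flanks fall in the order of the domains, from 108.5 peaks per Mb around PLAGL1 to 24.5 around DLK1-MEG3.

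No domain could be told from its own flanks by its density. PLAGL1 had 112 peaks per Mb and its flanks 108.5, a ratio of 1.03 (0.608 to 1.65). IGF2R had 106 and its flanks 81.0, a ratio of 1.30 (0.765 to 2.10). GNAS had 90.9 and its flanks 61.5, a ratio of 1.48 (0.692 to 2.81). The SNRPN domain had 36.8 and its flanks 49.0, a ratio of 0.752 (0.545 to 1.03). The chromosome 11 span had 28.4 and its flanks 27.0, a ratio of 1.05 (0.638 to 1.70). DLK1-MEG3 had 27.8 and its flanks 24.5, a ratio of 1.13 (0.353 to 2.83). In 0 of the 6 domains did the interval leave 1. The intervals were wide, with lower ends from 0.353 for DLK1-MEG3 to 0.765 for IGF2R and upper ends from 1.03 for the SNRPN domain to 2.83 for DLK1-MEG3, so they do not show that domains and flanks were alike. When peak-free stretches over 100 kb were left out of the lengths, the SNRPN domain came to 0.669 (0.485 to 0.919) and DLK1-MEG3 to 0.553 (0.172 to 1.38). That setting picks lengths by the absence of peaks itself, so these ratios do not measure a lack of peaks in the domains. DLK1-MEG3, with a longest gap of 67.1 kb, could lose little or no length, while its flanks had a gap of 191 kb. When each row of the list was counted, GNAS came to 2.22 (1.26 to 3.69). That interval takes the 17 rows of the 10 GNAS peaks as independent counts, so it is too narrow. PLAGL1 was 4.02-fold denser than DLK1-MEG3, with an interval of 1.45 to 13.8 that rests on 5 DLK1-MEG3 peaks, and the flanks of PLAGL1 were 4.43-fold denser than those of DLK1-MEG3 (3.24 to 6.17).

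The 6 domains pooled had a lower density than their flanks, a result that depended on how the domains were weighted. The 6 spans together held 43.0 peaks per Mb (36.4 to 50.4) and the flanks 58.6 (54.3 to 63.1), a ratio of 0.734 (0.611 to 0.876). The SNRPN domain makes up 54.4% of the length of the spans and 16.7% of that of the flanks. When the density of each pair of flanks was weighted by the length of its span, 163 peaks were expected in place of the 150 found, a ratio of 0.921 (0.779 to 1.08, error of the flanks not included). Without the SNRPN domain the same ratio was 1.15 (0.908 to 1.43), from 80 peaks found and 69.9 expected.

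The sides of a domain were not always alike. Around chromosome 11, the 1 Mb below the span held 17 peaks and the 1 Mb above it 37. The chromosome 11 span was thus 1.67-fold denser than its lower flank (0.879 to 3.27) and 0.768 times as dense as its upper flank (0.450 to 1.30). With flanks of 0.5 Mb the ratio of that span to both flanks was 1.89 (0.973 to 3.83). The nearest 0.5 Mb of the upper flank held 7 of its 37 peaks, while that of the lower flank held 8 of its 17. The 2 sides of the other domains were more even, with 115 and 102 peaks for PLAGL1, 83 and 79 for IGF2R, and 68 and 55 for GNAS. They held 47 and 51 for the SNRPN domain, and 29 and 20 for DLK1-MEG3. Within a side, peaks could still be uneven. The nearest 0.5 Mb held 11 of the 47 and 29 of the 51 for the SNRPN domain, and 19 of the 29 and 6 of the 20 for DLK1-MEG3. The SNRPN ratio was 0.921 (0.616 to 1.39) with flanks of 0.5 Mb and 1.03 (0.763 to 1.38) with flanks of 2 Mb.

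The long domains were among the emptier parts of their chromosomes, and the domains on chromosomes 6 and 20 lay in the fuller part. Each span was placed among consecutive windows of its own length on its chromosome. On chromosome 11, 96.3% of the 135 other windows held at least the 27 peaks of the H19-IGF2-KCNQ1-CDKN1C span, and their median was 46. On chromosome 15, 95.1% of 41 windows held at least the 70 peaks of the SNRPN domain, with a median of 110. On chromosome 20, 26.4% of 541 windows held at least the 10 peaks of GNAS, with a median of 7. On chromosome 6, 12.1% of 984 windows held at least the 19 peaks of PLAGL1, with a median of 12, and 16.0% of 929 windows held at least the 19 of IGF2R, with a median of 13. DLK1-MEG3 was near the middle, with at least 5 peaks in 59.8% of 487 windows and a median of 6. Windows that touched a peak-free gap over 1 Mb were left out.

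**Figure D2:**
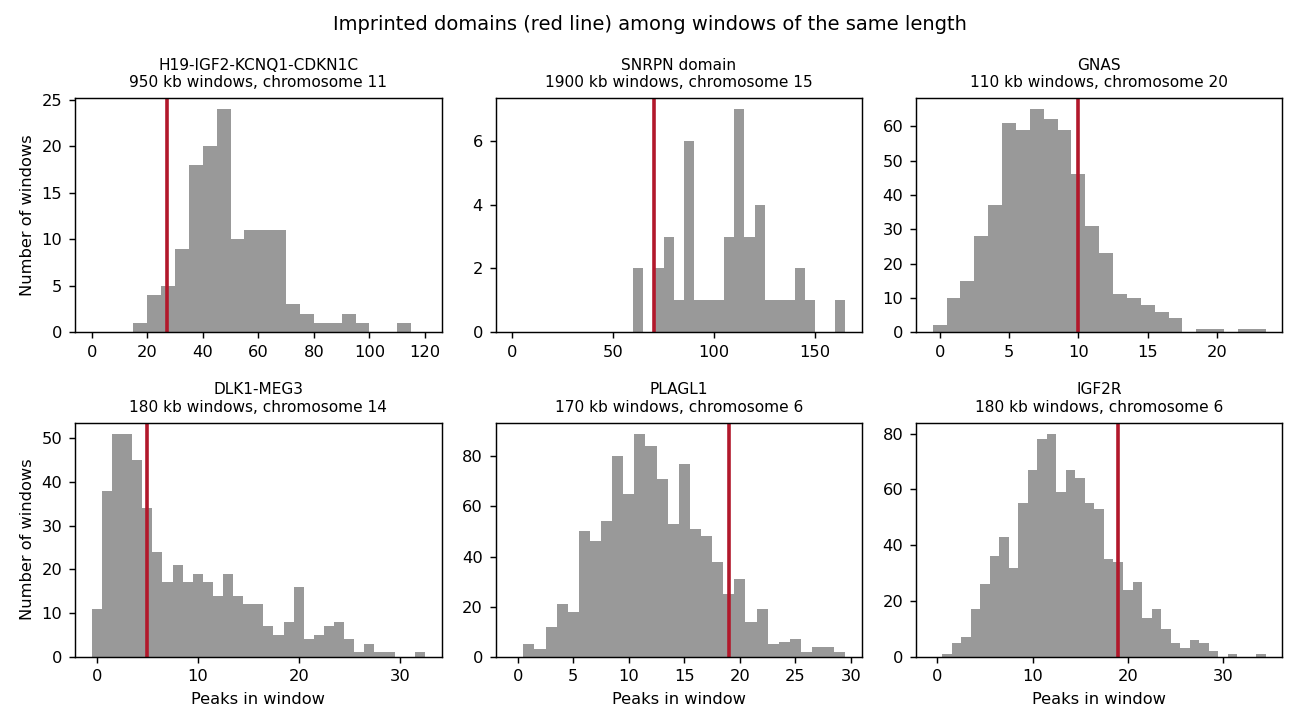
Histograms of the number of peaks in consecutive windows of the length of each domain on the same chromosome, with the count of the domain itself as a red line. The line lies at the low end for H19-IGF2-KCNQ1-CDKN1C (27 against a median of 46) and the SNRPN domain (70 against 110), and on the high side for PLAGL1 (19 against 12), IGF2R (19 against 13) and GNAS (10 against 7).

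The share of 10 kb bins with a peak gave a similar order. In the whole list 41.3% of such bins held a peak. Of the bins of PLAGL1, 13 of 17 held one (76.5%, Wilson interval 52.7 to 90.4%), against 62.0% in its flanks and 51.2% on chromosome 6. For IGF2R it was 10 of 18 (55.6%, 33.7 to 75.4%) against 55.0% in its flanks, and for GNAS 7 of 11 (63.6%, 35.4 to 84.8%) against 44.5% in its flanks and 48.9% on chromosome 20. The SNRPN domain had a peak in 59 of 190 bins (31.1%, 24.9 to 38.0%) against 35.5% in its flanks and 40.2% on chromosome 15. The chromosome 11 span had one in 25 of 95 bins (26.3%, 18.5 to 36.0%) against 22.5% in its flanks and 39.2% on chromosome 11. For DLK1-MEG3 it was 4 of 18 (22.2%, 9.0 to 45.2%) against 21.5% in its flanks and 33.8% on chromosome 14. All 6 spans together had a peak in 118 of 349 bins, 33.8% (29.0 to 38.9%), and their flanks in 40.2%. The SNRPN domain gave 190 of the 349 span bins, and its flanks gave 200 of the 1200 flank bins. The pooled shares thus weight the domains differently, and only the SNRPN domain had a lower share than its own flanks.

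The H19 and IGF2 end of the chromosome 11 span was thinly covered. The first peak of the span, from 2005979 to 2006271, was followed by 97.1 kb without a peak. Next came peaks from 2103402 to 2103560 and from 2123008 to 2123345, then 78.8 kb without a peak, and a single peak from 2202193 to 2202395. After it lay the longest empty stretch of the span, 115.6 kb from 2202396 to 2317989, while the longest in its flanks was 306 kb. None of these 4 peaks was wider than 338 bp.

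The KCNQ1 and CDKN1C end held more of the peaks of the chromosome 11 span. Above base 2475000, the middle of the span, lay 18 peaks, and below it lay 9, a ratio of 2.0 (0.853 to 5.05). This division was made after the values were seen, and its interval includes 1. The tightest group of the span was 3 peaks within 2.74 kb, from 2676130 to 2678864, each listed in 2 rows. Their widths were 332, 497 and 455 bp, and a further peak of 154 bp, also in 2 rows, lay at 2686558 to 2686711. The widest peak of the span, 667 bp, lay from 2601419 to 2602085. The bin from 2700001 to 2750000, between the fullest ones with 4 peaks each, held no peak. At the CDKN1C end, peaks of 389 and 201 bp lay from 2898734 to 2899122 and from 2900058 to 2900258. The single peaks at both ends of the span were picked for mention after their values were seen.

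**Figure D3:**
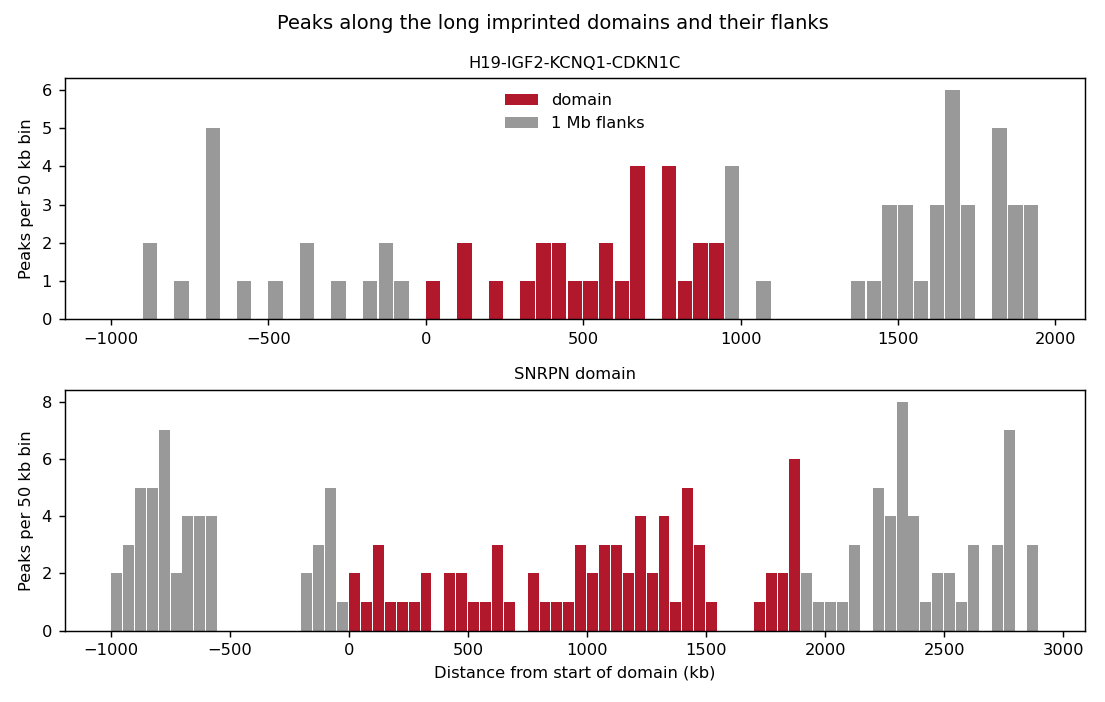
Peaks per 50 kb bin, by midpoint, along the H19-IGF2-KCNQ1-CDKN1C span and the SNRPN domain (red) and their 1 Mb flanks (grey), against the distance from the start of the domain. Bins in the chromosome 11 span reach 4 peaks and 4 of its 19 bins are empty, while bins in the SNRPN domain reach 6 and 5 of its 38 are empty.

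The SNRPN domain was sparse at its start and fuller towards its end, apart from a long empty stretch. Above base 24750000, the middle of the domain, lay 44 peaks, and below it 26, a ratio of 1.69 (1.02 to 2.86), again a division made after the values were seen. The longest peak-free stretch of the 6 spans, 180.5 kb from 25337678 to 25518145, lay in the fuller part and emptied 3 consecutive 50 kb bins. In its flanks the longest such stretch was longer still, 389 kb. The fullest bin of the domain was its last, from 25650001 to 25700000, with 6 peaks. It held the widest peak, 782 bp from 25680372 to 25681153, and the next, 622 bp from 25661511 to 25662132. A peak of 611 bp, from 25585370 to 25585980, came after these in width. Groups of 3 peaks, each within 5 kb of the next, lay from 23913154 to 23921362 and from 25127134 to 25135608.

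The GNAS peaks fell into 2 sets that differed in spacing. The longest gap in the flanks was 92.5 kb, and that between the first 4 peaks, which stood apart, was 29.8 kb. They lay from 57397169 to 57397651 (483 bp), from 57411715 to 57412128 (414 bp), from 57423420 to 57423628 (209 bp) and from 57453463 to 57453863 (401 bp). Another 6 lay within 14.04 kb, from 57468915 to 57482958, each within 5 kb of the next. That group opened with the widest peak of all 6 domains, 1195 bp from 57468915 to 57470109, followed by peaks of 498, 333, 252, 247 and 196 bp, each narrower than the one before.

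IGF2R held the longest group of peaks in the domains. From 160449968 to 160468185, 9 peaks lay within 18.2 kb, each within 5 kb of the next, with widths from 200 to 453 bp. Groups of at least 9 such peaks held 0.442% of the peaks of the list and numbered 71 in all. Before this group lay 41.4 kb without a peak, against a longest such stretch of 104 kb in the flanks. Before the 41.4 kb lay a pair of peaks at 160406976 to 160408540. The second-widest peak of the domains, 1109 bp, stood alone at the start of the span, from 160372607 to 160373715. The last 3 peaks, from 160517789 to 160520259, formed another group.

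PLAGL1, the densest domain, had a longest empty stretch of 26.8 kb, from 144360124 to 144386873, while its flanks had one of 55.1 kb. Its peaks formed 3 groups, of 3 peaks from 144274112 to 144283375, of 4 from 144326999 to 144334685 and of 3 from 144355816 to 144360123. The widest peak, 739 bp from 144359385 to 144360123, ended the last group, next to one of 643 bp from 144357810 to 144358452. A peak of 620 bp, from 144328117 to 144328736, belonged to the group of 4.

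DLK1-MEG3 had too few peaks for a pattern. At its DLK1 end lay peaks at 101194563 to 101194740, 178 bp wide, at 101222170 to 101222571, 402 bp wide, and at 101227561 to 101227858, 298 bp wide. After 67.1 kb without a peak followed one of 180 bp from 101294946 to 101295125 and one of 351 bp from 101312850 to 101313200, at the MEG3 end. The longest peak-free stretch in its flanks was 191 kb. No group of 3 within 5 kb was found in the domain.

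**Figure D4:**
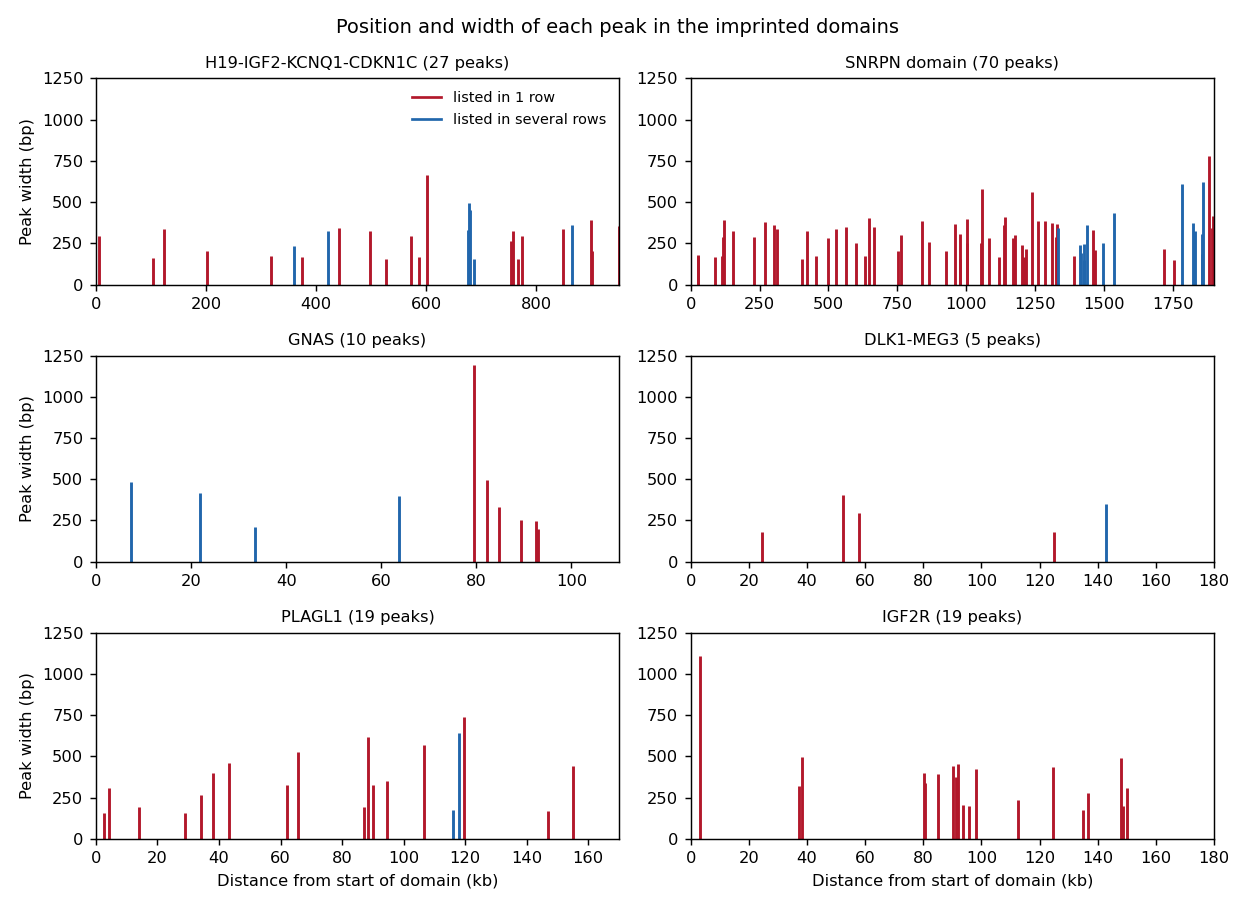
Every peak of the 6 domains as a line at its distance from the start of the domain, in kb, with the width of the peak in bp as the height of the line. Red peaks were listed in 1 row and blue ones in several, and the IGF2R panel shows the group of 9 peaks about midway along the span.

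In groups of 3 or more peaks within 5 kb of each other lay 37 of the 150 peaks (24.7%, Wilson interval 18.5 to 32.1%). The share was 31.2% in the flanks (27.8 to 34.7%) and 25.3% in the whole list. These pooled shares weight the domains differently, with 70 of the 150 domain peaks in the SNRPN domain and 98 of the 703 flank peaks around it. The share was not set against each domain's own flanks. The 9 groups were unevenly spread, with 3 in PLAGL1, 2 in IGF2R, 2 in the SNRPN domain, 1 in GNAS, 1 on chromosome 11 and 0 in DLK1-MEG3. Of the 19 peaks of PLAGL1 10 lay in such a group, of the 19 of IGF2R 12, and of the 10 of GNAS 6.

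Peaks with at least 1 other peak within 5 kb were less frequent in the pooled domains than in the flanks, and most of that difference came with the SNRPN domain. They numbered 65 of 150 in the domains (43.3%, 35.7 to 51.3%), against 413 of 703 in the flanks (58.7%, 55.1 to 62.3%) and 52.2% in the whole list. The domains minus the flanks came to -15.4 percentage points (-23.9 to -6.61, Newcombe). The SNRPN domain gave 70 of the 150 domain peaks and its flanks 98 of the 703, so the pooled shares weight the domains differently. With the share in each domain's own flanks applied to its peaks, 76.1 with a neighbour were expected in place of 65. In the SNRPN domain 20 of 70 peaks had such a neighbour (28.6%, 19.3 to 40.1%), against 50 of 98 in its flanks (51.0%, 41.3 to 60.7%), and these intervals lie apart. They take peaks as independent, although each of a pair within 5 kb counts the other as its neighbour. Without the SNRPN domain the share was 56.25% (45.3 to 66.6%) against 60% in the flanks, a difference of -3.75 points (-15.3 to 7.32).

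IGF2R went the other way, with 16 of 19 peaks near another (84.2%, 62.4 to 94.5%) against 61.1% in its flanks, a difference of 23.1 points (0.174 to 35.9). The intervals of the differences were not adjusted for the 6 domains, and those of the other 4 included 0. The shares in these 4 were 73.7% for PLAGL1 against 77.9% in its flanks, 60% for GNAS against 50.4%, 40% for DLK1-MEG3 against 38.8%, and 25.9% for chromosome 11 against 25.9%. In the SNRPN domain the density of peaks was 36.8 per Mb against 49.0 in its flanks, and its part in this share was not tested. The share was split by domain after its pooled value was seen.

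The median width of the peaks was close to that in the flanks. Over the 150 peaks it was 322.5 bp (quartiles 206 and 388 bp), against 322 bp in the flanks (231 and 402 bp) and 316 bp in the whole list. The medians of single domains were 375 bp for IGF2R, 367 bp for GNAS, 326 bp for PLAGL1, 298.5 bp for the SNRPN domain, 298 bp for DLK1-MEG3 and 297 bp for chromosome 11. Their flanks had medians from 301 to 337 bp. Peaks of 1 kb or wider numbered 2, in GNAS and IGF2R, which was 1.33% (Wilson interval 0.366 to 4.73%) against 1.14% in the flanks and 0.899% in the list. Peaks covered 4.12% of the PLAGL1 span, 4.04% of IGF2R and 3.84% of GNAS, against 4.29%, 2.78% and 2.09% of their flanks. They covered 1.14% of the SNRPN domain, 0.841% of the chromosome 11 span and 0.783% of DLK1-MEG3, against 1.55%, 0.868% and 0.780% of their flanks.

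Some peaks stand in several identical rows of the list, and this was more frequent in the pooled domains than in the flanks. By domain, the share was above that of its own flanks in SNRPN, GNAS, PLAGL1 and chromosome 11, and below it in DLK1-MEG3 and IGF2R. It held for 28 of the 150 peaks, 18.7% (Wilson interval 13.2 to 25.7%), against 77 of 703 in the flanks, 10.95% (8.85 to 13.5%), and 10.7% in the whole list. The difference was 7.71 percentage points, with an interval of 1.73 to 15.01 (Newcombe), and it was 4.38 points with flanks of 0.5 Mb. That interval takes peaks as independent, while 14 of the 28 repeated peaks lie in the SNRPN domain. This domain gave 70 of the 150 domain peaks and its flanks 98 of the 703, so the pooled shares weight the domains differently. Without the SNRPN domain it was 17.5% (10.7 to 27.3%) against 12.1% in the flanks (9.71 to 14.9%), and these intervals overlapped. What a repeated row stands for is not given in the sources used here.

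In the SNRPN domain and GNAS the repeated peaks stood at 1 end. In the SNRPN domain the first 48 peaks stood in 1 row each, and 14 of the last 22 were repeated, between 25135268 and 25662132. There 14 of 70 peaks were repeated (20%, 12.3 to 30.8%), against 4 of 98 in the flanks (4.08%, 1.6 to 10.03%). Both peaks listed 4 times were neighbours, from 25227357 to 25227603 and from 25227767 to 25227916. In GNAS the first 4 peaks were repeated, in 4, 3, 2 and 2 rows, and the group of 6 after them was not. PLAGL1 had 2 repeated peaks, side by side, from 144355816 to 144358452. On chromosome 11, 7 of 27 peaks were repeated (25.9%, 13.2 to 44.7%), each in 2 rows, against 20.4% in the flanks. DLK1-MEG3 had 1 of 5, its last peak in 3 rows, and its flanks had 21 of 49 (42.9%, 30.0 to 56.7%). None of the 19 IGF2R peaks was repeated, which allows a share of up to 15.8% if 3 counts are taken as the limit of a count of 0, and 16.8% by the Wilson interval, against 6.17% in its flanks.

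**Figure D5:**
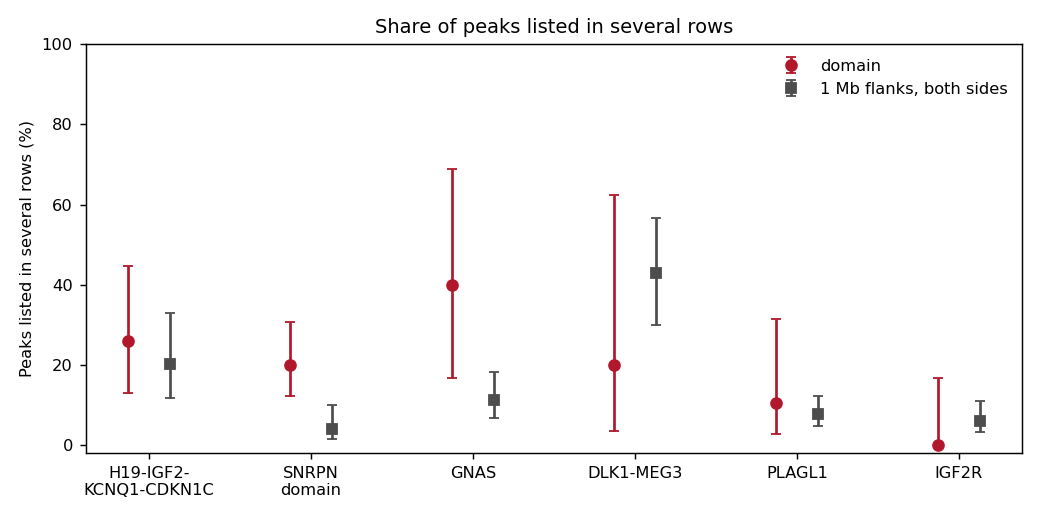
Share of peaks listed in several rows in each imprinted domain (circles) and in its 1 Mb flanks (squares), with 95% Wilson intervals. The intervals of domain and flanks lie apart in the SNRPN domain (20% and 4.08%) and overlap in the other 5. They take peaks as independent, while the repeated peaks of the SNRPN domain lie together at 1 end.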

How the data were processed

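H3K4me1 ChIP and input libraries of HepG2 cells were sequenced, 1 from each of 4 groups, which samples were assigned to by their titles. Per the submitters' processing notes, BWA and hg19 were used. Per the file header, the authors trimmed reads, removed duplicates and called peaks with MACS on the LSD2 siRNA library (treatment) against the GL3 siRNA library (control), with a read and fragment length of 128 bp, a p-value cutoff of 1e-05 and an enrichment factor of 32. The 3 deposited columns are chromosome, start and end, with no score, so every peak counts alike and the size of its change is unknown.

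Identical rows among the 180505 were counted as 1 peak. A peak belonged to a span if any base overlapped. Intervals are exact Poisson, exact conditional binomial (ratios), Wilson (shares) and Newcombe (difference of shares), all at 95%, for counting error only. The density ratio with its interval, the counts and the merging were tested first, on simulated peaks placed independently. The Wilson and Newcombe intervals were not tested in this way. Domains, lists and rules for named peaks (all peaks in short spans; the widest, most repeated and grouped peaks, and empty stretches, in long ones) were chosen with earlier results of these data known. Python 3.11.15, NumPy 2.4.6 and SciPy 1.17.1 were used.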

Additional observations from a re-analysis of the deposited data

How the results depend on the processing

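The alternatives were flanks of 0.5 and 2 Mb, merging of peaks within 1 kb, counting every row, covered bases, only peaks at or above the median width of the list, midpoints in place of overlap, leaving out peak-free stretches over 100 kb, and other bin lengths. The ratio of domain to flanks ranged from 0.669 to 1.03 for the SNRPN domain, 1.36 to 2.22 for GNAS, 0.962 to 1.09 for PLAGL1, 1.13 to 1.57 for IGF2R, 0.553 to 1.21 for DLK1-MEG3 and 0.794 to 1.89 for chromosome 11. The last of these, with flanks of 0.5 Mb, lay outside the interval of the reported ratio. The interval left 1 for the SNRPN domain without long empty stretches (0.669, 0.485 to 0.919), a setting that picks lengths by the absence of peaks. The lowest ratios of the SNRPN domain, DLK1-MEG3 and chromosome 11 all came from that setting. The interval also left 1 for GNAS by rows (2.22, 1.26 to 3.69), which counts its repeated peaks several times as if they were independent. For all spans together, weighting flanks by span length, chosen after seeing the data, gave 0.921, and leaving out the SNRPN domain 0.832 (0.650 to 1.05). The share of bins with a peak was 19.8% with 5 kb bins, 57.2% with 20 kb bins and 18.6% for the wider peaks, by construction, against 24.8%, 62.8% and 24.0% in the whole list. For peaks with another within 5 kb, domains minus flanks gave -5.91 points (-13.3 to 2.40) within 2 kb and -3.75 without the SNRPN domain, where both intervals include 0, and -16.8 to -13.3 with 10 kb or other flanks, all chosen after seeing the data. No paired analysis was possible because no group holds more than 1 library, and for the same reason no replicate could be left out. With 5 to 19 peaks in each short domain, the intervals of the ratio span at least 0.765 to 1.65.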
